A study of Mus musculus with 8 samples.

Results

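The Smad family comprises the transcription factors that carry signals of TGF-beta, activins and bone morphogenetic proteins (BMPs) from the receptor to the nucleus. The 8 members were matched by symbol to the GENCODE vM1 annotation of the mouse assembly mm9, and all 8 were found among 22367 protein-coding genes. For each gene, the peaks counted were those centred in the promoter and those centred in the gene body. The promoter reached from 1 kb before the transcription start site (TSS) to 0.5 kb past it. The body reached from 0.5 kb past the TSS to the end of the gene. The numbers of peaks were set against all protein-coding genes of the same library. Bodies were compared among the 13156 genes whose body is 10 kb or longer, which include all 8 members. Smad3 is one of the genes whose promoter was also assayed by ChIP-qPCR in the study. The qPCR values were not analysed here.

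The samples were subcutaneous isografts of the murine Lewis lung carcinoma line in young adult female C57BL/6J mice, dissected at about 500 mm3. LLC-NR is drug sensitive, and LLC-R is a subline made resistant to VEGF-Trap, a decoy receptor that binds VEGF, by repeated selection in mice. Nuclei of tumor tissue were digested with micrococcal nuclease, and nucleosomes that carried H3K4me3, H3K9ac, H3K27me3 or H3K36me3 were pulled down, each mark with its own antibody. There was 1 library for each line and mark, 8 in all, so differences between the lines have no replicate check and no test was made. The labels name no drug treatment of the tumors that were dissected, and host cells of the tumor stay in the tissue, so a mark on fewer cells and a weaker mark per cell cannot be told apart.

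Receptor-regulated Smads are phosphorylated by type I receptors. Smad2 and Smad3 serve the TGF-beta and activin branch, and Smad1, Smad5 and Smad9 serve the BMP branch. Smad4 is the common partner that joins them, and Smad6 and Smad7 are inhibitory members that block the receptors and are themselves induced by the pathway. H3K4me3 and H3K9ac mark promoters in use, H3K36me3 is laid down along transcribed bodies and H3K27me3 is the mark of Polycomb repression. TGF-beta signalling acts in carcinoma cells, vessels, fibroblasts and immune cells of a tumor.

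The libraries held between 5660458 and 9101721 peaks, each 147 bp wide and none overlapping another of its library, so that peaks covered from 31.3% to 50.4% of the genome. The mean promoter held 4.91 peaks of H3K4me3, 5.51 of H3K9ac, 4.55 of H3K27me3 and 3.2 of H3K36me3 in LLC-NR. The same means were 4.6, 4.96, 5.45 and 4.96 in LLC-R. No promoter held more than 9 peaks of a mark, so a promoter near that number could not show a further gain. In bodies, the coefficient of variation over genes was 32.2% for H3K27me3 and 27.6% for H3K36me3 in LLC-NR. It was 19.1% and 19% in LLC-R, whose libraries for these marks had more peaks and high and low genes closer together. The study lists more uniquely mapped reads in LLC-R than in LLC-NR for H3K27me3 and H3K36me3, and fewer for H3K4me3 and H3K9ac. The part of read depth in the numbers of peaks and in their spread was not tested. Levels were therefore given as numbers of peaks, as peaks per kb and as percentiles among all genes of the library. Promoters of markers of host and epithelial cells carried peaks in every library. Summed over the list, H3K4me3 peaks numbered 39 in LLC-NR against 32 in LLC-R at 8 leukocyte markers, 31 and 24 at 7 endothelial markers, 42 and 39 at 8 fibroblast markers, 28 and 34 at 6 epithelial markers and 28 and 28 at 6 markers of lung epithelium. H3K9ac peaks numbered 52 and 41 at the leukocyte markers, 37 and 40 at the endothelial markers and 58 and 42 at the fibroblast markers. They numbered 37 and 33 at the epithelial markers and 35 and 32 at those of lung epithelium. H3K4me3 and H3K9ac thus went opposite ways at the endothelial and at the epithelial markers. The mean of all promoters was lower in LLC-R for both marks, with 5.51 and 4.96 for H3K9ac. The lowest single marker promoter held 1 H3K4me3 peak, so no marker was at 0, and the part of host cells in the values below was not tested.

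The members lie on 5 chromosomes. Smad3 (chr9:63494574-63605801, minus strand) and Smad6 (chr9:63800953-63869866, minus strand) are neighbours 195 kb apart. Smad2 (chr18:76401234-76465385, plus strand), Smad4 (chr18:73798663-73863434, minus strand) and Smad7 (chr18:75527183-75555589, plus strand) share chromosome 18. Smad1 lies at chr8:81862294-81923417 on the minus strand, Smad5 at chr13:56804371-56843738 on the plus strand and Smad9 at chr3:54559504-54605179 on the plus strand. The TSS was the start shared by most transcripts, which was the first start of the gene in 7 members. In Smad2, 2 transcripts share a start 20912 bp inside the gene, and the promoter values at its first start are given beside it. The body of Smad2 was counted from the internal start and so took in 42.7 kb of a gene of 64.2 kb.

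H3K4me3, the mark of promoters in use, was above the mean of all promoters at the first start of every member in LLC-NR. Among the receptor-regulated Smads, Smad3 had 6 H3K4me3 peaks in both lines and Smad1 had 6 in both. Smad5 had 7 in LLC-NR against 6 in LLC-R, and Smad9 had 6 and 5. Smad2 had 6 in both lines at its first start and 4 and 5 at its internal start. The common partner Smad4 had 6 in LLC-NR against 4 in LLC-R, the widest difference of the family for this mark. The inhibitory Smad6 had 6 in both lines, and Smad7 had 7 and 6. At the first starts, the members thus ranged from 6 to 7 peaks in LLC-NR and from 4 to 6 in LLC-R. No member differed by 1.5-fold or more between the lines in peaks relative to the mean of all promoters, with a pseudocount of 10% of that mean. Of all 22367 promoters, 8.63% were past this fold with more in LLC-R and 7.66% with more in LLC-NR.

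H3K9ac, a mark of active promoters, also differed by less than the fold at every member. Smad3 had 7 peaks in LLC-NR against 6 in LLC-R, Smad4 had 7 and 5, Smad7 had 7 and 5, and Smad6 had 6 and 5. Smad2 had 6 and 4 at either of its starts. Smad1 and Smad5 had the same number in both lines, 6 and 5 respectively. Smad9, whose protein is also called Smad8, stood alone with more peaks in LLC-R, with 5 in LLC-NR against 7 in LLC-R, which took it from percentile 28.5 to percentile 92.1 of all promoters. Its log2 ratio of 0.58 lay just under the fold, and without the pseudocount it passed. In plain numbers, 5 of the 8 promoters had fewer H3K9ac peaks in LLC-R, as did 50.6% of all promoters. Past the fold were 4.5% of all promoters with more and 6.8% with less in LLC-R.

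H3K27me3, the Polycomb mark, was highest at the promoter of Smad6 in both lines, together with Smad1 in LLC-NR and with Smad7 in LLC-R, and lowest at that of Smad4. Smad6 had 7 peaks in both lines, a number that 2.15% of all promoters exceeded in LLC-NR against 4.69% in LLC-R. Smad7 had 6 in LLC-NR against 7 in LLC-R, and Smad1 had 7 and 6. Smad9 had 6 in both lines, Smad5 had 5 and 6, and Smad3 had 4 and 5. Smad2 had 4 and 5 at its first start and 4 and 6 at its internal start. Smad4 had 3 in both lines, at percentile 19.4 in LLC-NR and percentile 8.27 in LLC-R. No member was past the fold, against 12.4% of all promoters with more and 4.82% with less in LLC-R.

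H3K36me3 was scarce at the first starts. In LLC-NR, where the mean promoter had 3.2 peaks, Smad7 had 0, Smad6 had 1, and Smad2 at its first start, Smad3, Smad4 and Smad5 had 2 each, while Smad1 had 4 and Smad9 had 5. In LLC-R, where the mean was 4.96, Smad3, Smad4 and Smad6 had 3 each, Smad5, Smad7 and Smad9 had 4 each, and Smad1 and the first start of Smad2 had 5 each. The internal start of Smad2 had 7 in both lines, more than 98.4% of all promoters in LLC-NR. Past the fold were 2 members with more in LLC-R, Smad6 and Smad7, and 2 with less, Smad2 at its internal start and Smad9, against 20.9% and 12.5% of all promoters. The log2 ratio was 0.77 for Smad6, -0.60 for Smad2 and -0.88 for Smad9. For Smad7 no fold is given, since it had 0 peaks in LLC-NR against 4 in LLC-R. Smad9 had 1 peak fewer in LLC-R while the mean promoter gained, which put it past the fold. The number at the internal start of Smad2 did not change, and only the gain of the mean promoter put it past the fold. Relative to all peaks of the library, or to windows far from any TSS, 2 members were higher and 1 lower, with no scaling 3 and 0, and per uniquely mapped read 1 and 3. Of all promoters, 23.3% were higher and 5.78% lower relative to all peaks or to such windows. With no scaling these shares were 46.9% and 0.97%, and per uniquely mapped read 8.73% and 40.1%. At its first start, Smad2 had a log2 ratio of 0.61, past the fold in the other direction.

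**Figure D1:**
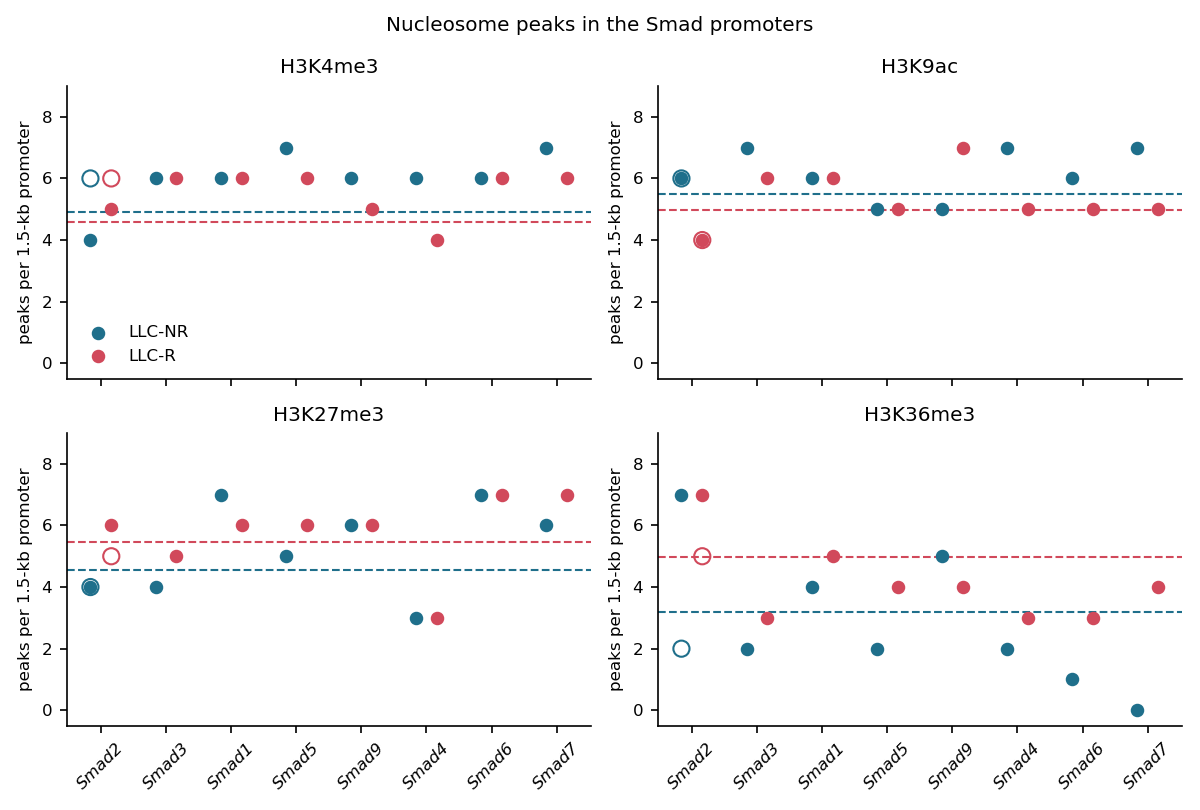
Number of nucleosome peaks (y axis) in the 1.5-kb promoter of each Smad gene (x axis) for the 4 marks, with 1 filled point per library, open circles for the first start of Smad2 and dashed lines at the mean of all protein-coding promoters of the library. H3K4me3 points lie from 4 to 7, most above the dashed lines, while in LLC-NR most H3K36me3 points lie below the line at 3.2 and Smad7 is at 0.

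The states of the promoters were read from these numbers, with the mean of all promoters of a library as threshold. A promoter is called active here with an active mark at or above its mean and H3K27me3 below, and bivalent with both, which does not show both marks on the same nucleosome or in the same cell. The study set its states from normalized tag counts, with a higher threshold for the active marks. The states here are therefore not those of the study. Smad3 and Smad4 were active in both lines. Smad1, Smad5, Smad6, Smad7 and Smad9 were bivalent in both. Smad2 was active in LLC-NR and bivalent in LLC-R at its internal start and active in both lines at its first start. Thus 7 of 8 members kept their state, as did 62.1% of all promoters. Active promoters made up 29.8% of all in LLC-NR against 28.4% in LLC-R, and bivalent ones 48.3% and 52.9%.

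The sequence of the promoters was CpG-rich in 7 of 8 members. They belong to the high CpG promoters (HCPs), which hold an interval of 500 bp with at least 55% G+C and an observed to expected ratio of CpG of at least 0.6, as did 53.9% of all promoters. The exception was Smad2 at its internal start, an intermediate promoter with 11 CG and 36.1% G+C, while its first start is an HCP with 155 CG and 65.9% G+C. Over all HCPs the mean number of H3K4me3 peaks was 6.05 ± 1.35 (SD, n = 12045) in LLC-NR against 5.6 ± 1.31 in LLC-R. The first starts of the family lay within 1 SD of these means, except that of Smad4 in LLC-R with 4 peaks. The other promoters had a mean of 3.58 in LLC-NR against 3.44 in LLC-R. For H3K36me3 the HCP mean was 3 ± 1.39 in LLC-NR against 4.95 ± 1.32 in LLC-R. Smad6 and Smad7 lay more than 1 SD below it in LLC-NR, and Smad3, Smad4 and Smad6 in LLC-R, while Smad9 lay more than 1 SD above it in LLC-NR.

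The 250 bases before the start, in mm9 and in the sense of transcription, show the CpG-rich sequence under these peaks. No exon of the annotation overlaps them. Smad3 is shown with its ChIP-qPCR amplicon in capitals, and Smad5, Smad6 and Smad9 with every CG in capitals, as examples of a BMP-branch promoter with 5 and 6 H3K27me3 peaks and of the 2 genes with the highest H3K27me3 along their bodies.
Smad3, chr9:63605802-63606051, minus strand: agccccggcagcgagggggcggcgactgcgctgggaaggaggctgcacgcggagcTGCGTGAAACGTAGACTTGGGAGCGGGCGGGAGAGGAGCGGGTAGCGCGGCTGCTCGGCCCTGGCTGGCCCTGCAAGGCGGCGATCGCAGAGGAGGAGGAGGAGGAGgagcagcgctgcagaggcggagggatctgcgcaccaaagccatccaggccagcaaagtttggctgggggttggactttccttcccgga
Smad5, chr13:56804121-56804370, plus strand: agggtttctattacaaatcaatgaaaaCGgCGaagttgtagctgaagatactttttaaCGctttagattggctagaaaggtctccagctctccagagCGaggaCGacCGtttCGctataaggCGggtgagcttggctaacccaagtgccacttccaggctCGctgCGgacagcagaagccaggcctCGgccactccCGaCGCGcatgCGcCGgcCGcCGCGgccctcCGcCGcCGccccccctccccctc
Smad6, chr9:63869867-63870116, minus strand: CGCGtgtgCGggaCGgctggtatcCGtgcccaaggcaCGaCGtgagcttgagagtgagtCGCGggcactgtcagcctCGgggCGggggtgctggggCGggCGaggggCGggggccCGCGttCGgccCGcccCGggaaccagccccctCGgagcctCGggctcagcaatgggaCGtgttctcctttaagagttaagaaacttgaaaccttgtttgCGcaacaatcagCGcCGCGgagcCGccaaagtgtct
Smad9, chr3:54559254-54559503, plus strand: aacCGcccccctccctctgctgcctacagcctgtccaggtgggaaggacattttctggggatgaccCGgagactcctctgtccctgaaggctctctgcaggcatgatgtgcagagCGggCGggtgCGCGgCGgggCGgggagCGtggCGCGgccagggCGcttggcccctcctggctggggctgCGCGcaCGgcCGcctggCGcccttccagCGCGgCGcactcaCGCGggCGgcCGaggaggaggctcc
These 250 bases hold 22 CG in Smad3, 22 in Smad5, 27 in Smad6 and 24 in Smad9, at 69.2%, 60%, 66.8% and 73.2% G+C. Over the whole 1.5-kb promoter Smad3 holds 115 CG, Smad5 125, Smad6 109 and Smad9 80, where the median promoter holds 47.

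Letters bound by Smad complexes were counted in the 1.5-kb promoters on both strands. The palindrome GTCTAGAC, which holds the shorter element GTCT on either strand, occurred once in Smad6 and once in Smad7, the inhibitory members, and in no other member, against 1.15% of all promoters. The motif GTCTG, which GTCTAGAC does not contain, occurred in all 8 members, from 1 to 4 times at the starts used, and in 95.8% of all promoters. The GC-rich motif GGCGCC occurred in 7 of 8 members, all but Smad2 at its internal start, and in 34.9% of all promoters. These 7 are the HCPs among the members, and the share of all HCPs with the motif was not counted. The first start of Smad2, also an HCP, holds it 5 times. These are matches of letters, and binding was not measured.

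The amplicon of the Smad3 ChIP-qPCR covers chr9:63605890-63605996, 107 bp that lie from 89 to 195 bp upstream of the TSS. In the H3K4me3 libraries 1 peak lay over it in each line, with midpoints 104 bp upstream of the TSS in LLC-NR against 96 bp in LLC-R, covering 83.2% and 75.7% of the amplicon. H3K9ac had a peak centred 94 bp upstream in LLC-NR, with a further peak at 246 bp reaching into the amplicon, and a peak at 100 bp in LLC-R. H3K27me3 had a peak centred 78 bp upstream in LLC-NR, covering 58.9% of the amplicon, and in LLC-R a peak at 239 bp, covering 28%. No H3K36me3 peak touched it in either line. The upstream H3K4me3 and H3K9ac nucleosomes at the amplicon thus lay within 10 bp of each other between the lines, while that of H3K27me3 did not. The files give positions and no read counts, so they cannot show how strongly the amplicon was enriched.

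Positions were also compared over whole promoters, where a LLC-NR peak was matched when the LLC-R library of the same mark had a midpoint within 30 bp. For H3K4me3, 26 of 48 peaks of the family matched, or 54.2%, against 43.9% of the peaks in all promoters. The share ran from 33.3% in Smad6 and Smad9 to 71.4% in Smad7. For H3K9ac 24 of 49 matched, or 49%, against 46.1%. For H3K27me3 17 of 42 matched, or 40.5%, against 43.2%, with 0 of 4 in Smad3 and 0 of 3 in Smad4. For H3K36me3 12 of 23 matched, or 52.2%, against 41.3%.

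The stretch without H3K36me3 around the start was widest at the inhibitory Smads in LLC-NR. At Smad7 the nearest midpoints lay 1639 bp upstream and 1891 bp downstream of the TSS, a gap of 3530 bp at percentile 95.1, whereas the median gap was 683 bp. In LLC-R, which has more H3K36me3 peaks, the gap of Smad7 was 506 bp, at percentile 71, and the median was 359 bp. At Smad6 the gap was 2108 bp in LLC-NR against 650 bp in LLC-R, at percentiles 93 and 82. Smad3 had gaps of 1231 and 931 bp, Smad4 of 1564 and 1053 bp and Smad5 of 1722 and 891 bp, and these 3 genes were at percentile 79.7 or above in both lines. H3K27me3 was missing over the start of Smad4 in both lines, with gaps of 1003 and 1022 bp at percentiles 88.5 and 93.7. The nearest upstream H3K4me3 midpoint of Smad4 lay 20 bp from the TSS in LLC-NR and 257 bp from it in LLC-R.

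**Figure D2:**
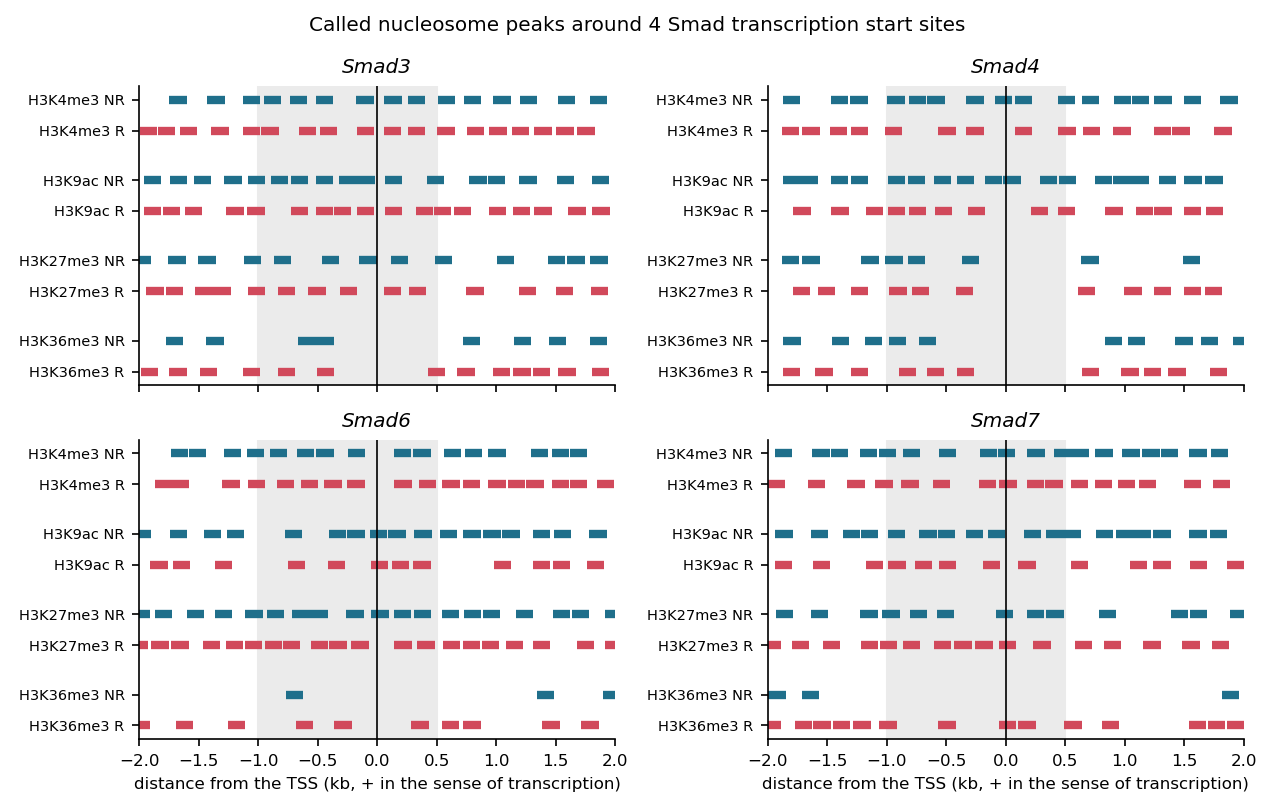
Each bar is 1 called nucleosome peak of 147 bp at its distance from the TSS (x axis, kb) for Smad3, Smad4, Smad6 and Smad7, with 1 row per mark and line, the TSS at the black line and the promoter in grey. H3K4me3 peaks run across all 4 starts, while H3K36me3 peaks of LLC-NR leave a gap at Smad6 and Smad7. From midpoint to midpoint these gaps span 2108 bp at Smad6 and 3530 bp at Smad7. Measured alike, H3K27me3 leaves a gap of 1003 bp in LLC-NR against 1022 bp in LLC-R at Smad4.

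Most starts inside the genes had more H3K36me3 and fewer H3K4me3 peaks than the first starts in LLC-NR. The annotation gives 17 further starts more than 1 kb downstream of the first in 6 members. In LLC-NR the median of these 17 was 6 H3K36me3 peaks, from 0 to 7, against a median of 2 at the 8 first starts. Their median was 4 H3K4me3 peaks, from 2 to 8, against 6. In LLC-R the medians were 6 and 4 for H3K36me3 and 5 and 6 for H3K4me3. Windows of neighbouring starts overlap, so these numbers are not independent. Smad3 shows the contrast within 1 gene, since its first start had 6 H3K4me3 and 2 H3K36me3 peaks in LLC-NR, and the start 14729 bp downstream had 2 and 6. The starts of Smad7 1354, 1461 and 2447 bp downstream were nearer to a first start in LLC-NR, with 8, 8 and 7 H3K4me3 and 0, 1 and 3 H3K36me3 peaks. The start of Smad6 5072 bp downstream had 6 of each, with 7 H3K27me3 peaks, and that of Smad5 30007 bp downstream had 6 H3K4me3 and 7 H3K36me3 peaks.

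Along the gene bodies the family separated by H3K27me3. In LLC-NR the inhibitory Smad6 had 3.9 H3K27me3 peaks per kb (exact Poisson 95% interval 3.45 to 4.4, counting error only) and the BMP-branch Smad9 had 3.9 (3.34 to 4.52), at percentiles 87.4 and 87.2 of all bodies. The other 6 members had from 1.52 to 2.42 peaks per kb, below the median of all bodies of 2.67, and their intervals did not reach those of Smad6 and Smad9. In LLC-R the median body had 3.79 peaks per kb, and Smad6 and Smad9 had 4.34 (3.86 to 4.86) and 4.27 (3.69 to 4.92), at percentiles 93.3 and 88.7, again the highest of the family. The others had from 3.08 to 3.75. Peaks within a library cannot overlap, so they are not independent and these intervals are approximate.

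Smad4 was at the other end. It had 1.52 H3K27me3 peaks per kb in LLC-NR (1.24 to 1.86) and 3.08 in LLC-R (2.67 to 3.54), at percentiles 4.95 and 7.6. Between them in LLC-NR came Smad2 with 2.08, Smad5 with 2.16, Smad7 with 2.22, Smad1 with 2.31 and Smad3 with 2.42 peaks per kb. Neighbours in this order had overlapping intervals except at the step from Smad3 to Smad9, and the interval of Smad4 lay below those of Smad1 and Smad3. In LLC-R the order was Smad4, Smad5 with 3.16, Smad2 with 3.37, Smad7 with 3.58, Smad1 with 3.73, Smad3 with 3.75, then Smad9 and Smad6. All neighbours in that order had overlapping intervals.

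For H3K36me3 along the bodies, Smad6 was lowest in LLC-NR. It had 2.51 H3K36me3 peaks per kb in LLC-NR (2.15 to 2.92), at percentile 21.5, and 3.8 in LLC-R, at percentile 32.4. Its LLC-NR interval lay below those of Smad1, Smad2 and Smad3 and overlapped those of the other members. In LLC-NR Smad7 had 3.01 peaks per kb, Smad5 3.11, Smad9 3.12, Smad4 3.16, Smad1 3.51, Smad3 3.52 and Smad2 3.53, where the median body had 3.23. In LLC-R the members ran from 3.56 in Smad4 to 4.21 in Smad1, and the median body had 4.01. The log2 ratio of the H3K27me3 to the H3K36me3 level of the same body, each divided by the mean of all bodies of its library, was 0.80 in LLC-NR against 0.25 in LLC-R for Smad6, at percentiles 90.5 and 88.6. It was 0.49 and 0.20 for Smad9, at percentiles 69.6 and 81.1. For the other 6 members it was below 0 in both lines, lowest in Smad4 in LLC-NR at -0.88 and percentile 6.28 and in Smad2 in LLC-R at -0.18 and percentile 21.3. On this scale 0 means that both marks stand alike against the mean body, not that their peaks are equal in number.

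**Figure D3:**
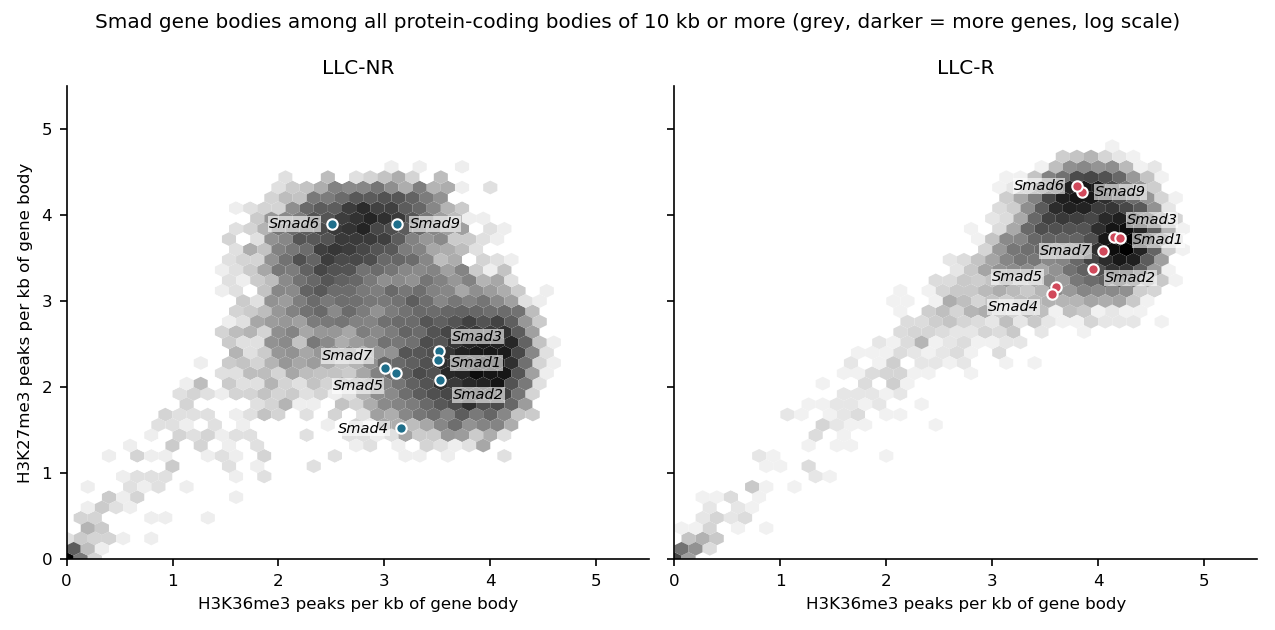
H3K27me3 against H3K36me3 peaks per kb of gene body in each line, with the 8 Smad genes as points over all bodies of 10 kb or more in grey, darker for more genes. Smad6 and Smad9 lie at 3.9 H3K27me3 peaks per kb in LLC-NR and the other 6 members between 1.52 and 2.42, and in LLC-R all genes lie closer together.

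The 2 neighbours on chromosome 9 differed within a shared region. The 500 kb on each side held 3.27 H3K27me3 peaks per kb around Smad3 and 3.37 around Smad6 in LLC-NR, and 4.06 around each in LLC-R. The body of Smad3 had 0.739 times the level of its flanks in LLC-NR against 0.923 times in LLC-R, and that of Smad6 had 1.16 and 1.07 times. Smad9 had 1.04 and 1.03 times, and the other members had from 0.491 times in Smad4 to 0.781 times in Smad7 in LLC-NR and from 0.757 times in Smad5 to 0.951 times in Smad1 in LLC-R. For H3K36me3, the body of Smad2 had 2 times the level of its flanks in LLC-NR and 1.28 times in LLC-R.

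The active marks along the bodies were highest in Smad7 in LLC-R. Smad7, the shortest member with 27.9 kb of body, had 3.08 H3K4me3 peaks per kb in LLC-NR against 3.4 in LLC-R, at percentiles 81.5 and 94.4, and 4.26 and 4.12 H3K9ac peaks per kb, at percentiles 81.8 and 95.7. Smad3 had 2.7 and 2.84 H3K4me3 peaks per kb, and 4.25 and 3.99 H3K9ac peaks per kb at percentiles 80.5 and 87.8. Over their whole bodies, repeated sequence included, Smad4 and Smad5 were low for both marks, with 2.05 and 2.08 H3K4me3 peaks per kb in LLC-NR, at percentiles 14.7 and 15.9. The body of Smad9 had 3.21 H3K4me3 peaks per kb in LLC-NR (2.71 to 3.78) and 2.68 in LLC-R (2.22 to 3.2), going from percentile 87.2 to percentile 54.3. That is a shift of -32.9 points, and 8.8% of all bodies shifted as far or further. In Smad4, H3K36me3 went from percentile 47.1 to 17.8, a shift that 9.01% of bodies reached, and in Smad5 from 45.2 to 19.5, which 13.3% reached.

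Part of the low level of Smad4 and Smad5 fell in stretches of repeated sequence, where reads kept only when uniquely mapped may have no place. In the window from 10 to 15 kb downstream of the first start of Smad5, 0.52% of all 32-base stretches occur once in the genome, and the mean over the 8 libraries was 0.05 peaks per kb. In Smad4 the windows from 10 to 15, 15 to 20 and 20 to 25 kb had 20.3%, 22.2% and 47.7% of stretches occurring once and 0.825, 0.875 and 1.6 peaks per kb. These 4 were the only windows under 50% among 92 in the 8 genes, and the other windows had at least 1.78 peaks per kb, with a median of 3.42. Over the 9 windows of Smad4 that remain, H3K27me3 was 1.73 peaks per kb in LLC-NR against 3.53 in LLC-R, in place of 1.48 and 2.97 over all 12. H3K36me3 was 3.76 and 4.13 in place of 3.08 and 3.48. Without the repeated window, Smad5 had 2.33 and 3.63 H3K27me3 and 3.5 and 3.97 H3K36me3 peaks per kb. For the active marks, Smad4 then had 2.44 and 2.6 H3K4me3 and 3.82 and 3.82 H3K9ac peaks per kb, in LLC-NR and LLC-R. Smad5 had 2.53 and 2.6 H3K4me3 and 3.87 and 3.53 H3K9ac peaks per kb. The median whole body had 2.62 and 2.63 H3K4me3 and 4.06 and 3.68 H3K9ac peaks per kb. With these windows left out, the H3K27me3 level of Smad4 was still the lowest of the family in LLC-NR. In LLC-R it was not, since Smad2 had 3.48 against the 3.53 of Smad4. Over whole bodies, 81.1% of stretches occur once in Smad4, 80.2% in Smad5 and 89.6% in Smad2, and from 95.7% to 98.5% in the other members.

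**Figure D4:**
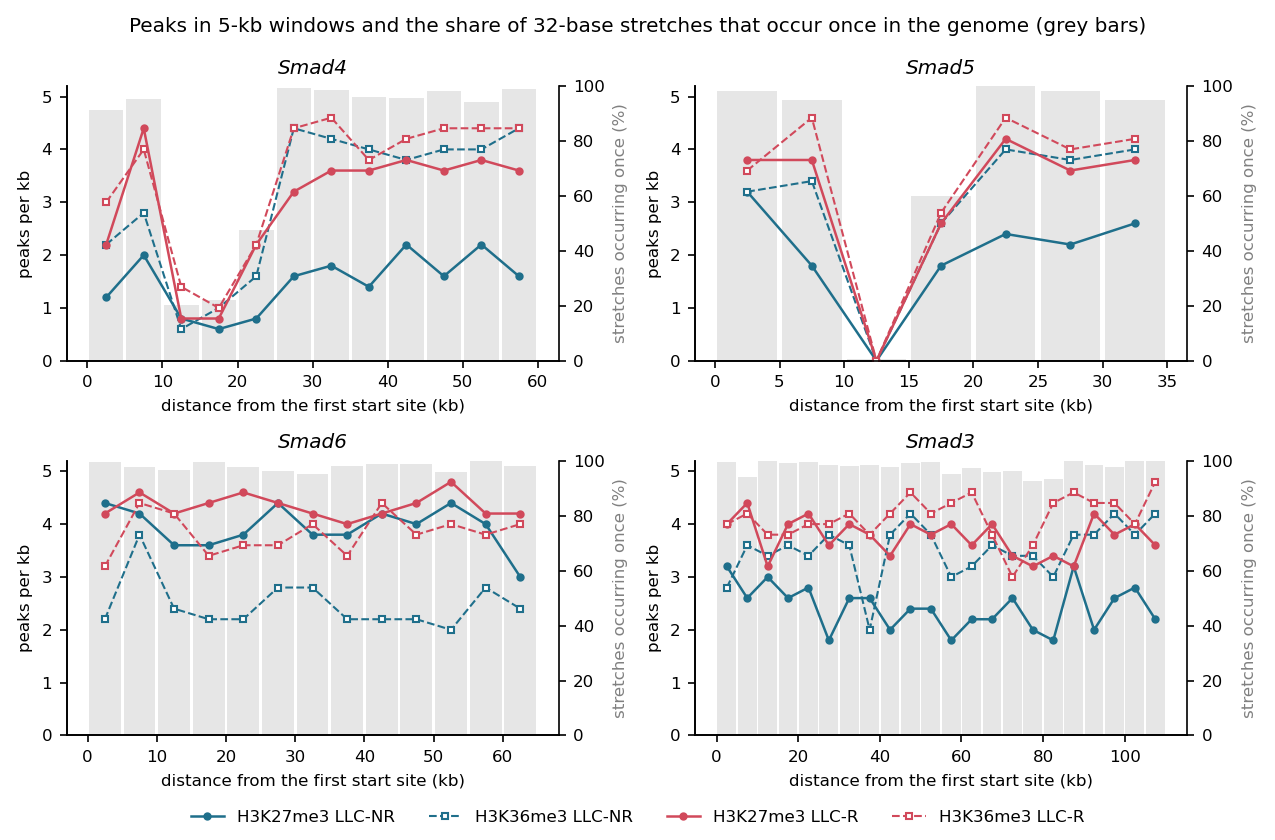
H3K27me3 (solid) and H3K36me3 (dashed) peaks per kb (left axis) in 5-kb windows from the first start of Smad4, Smad5, Smad6 and Smad3, over grey bars for the percentage of 32-base stretches that occur once in the genome (right axis). All 4 lines dip where the bars do, at 10 to 25 kb in Smad4 and at 10 to 15 kb in Smad5, while H3K27me3 stays at 3 or more peaks per kb along Smad6.

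Smad6 carried H3K27me3 along its whole length, with no window under 3 peaks per kb in LLC-NR and none under 4 in LLC-R. Smad9 was alike, with no window under 3.4 and 4. In Smad3 the windows ran from 1.8 to 3.2 in LLC-NR, with 3.2 both at the first start and from 85 to 90 kb, and from 3.2 to 4.4 in LLC-R. No window within a gene had more H3K4me3 than its first 5 kb in LLC-NR, where these held from 3 peaks per kb in Smad4 to 4.6 in Smad7, but a later window held as many in Smad4 and Smad9. In LLC-R the same was so in 6 of 8 genes, all but Smad2 and Smad9, with a later window level in Smad4 and Smad5. H3K36me3 in LLC-NR was lower in the first window than over the second part of the gene in 7 of 8 members, all but Smad9. The lowest first windows were those of Smad7 with 2 peaks per kb and of Smad4 and Smad6 with 2.2 each.

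Between the lines, most bodies differed by less than 1.2-fold relative to the mean of all bodies. For H3K27me3, 4 members were past that fold with more in LLC-R, Smad4 (log2 ratio 0.60), Smad1, Smad2 and Smad7 (0.28 each), against 26.6% of all bodies. Smad9 (-0.28) was past it with less, against 19.8% of all bodies. Smad6 (-0.26), Smad3 (0.22) and Smad5 (0.14) were not. The members with more were among the 6 that were low in LLC-NR, and Smad9 was one of the 2 that were high. Levels of all genes lie closer together in the LLC-R library, and the part of this in the ratios was not tested. Bodies of host and epithelial markers past the fold for H3K27me3 all had less in LLC-R, with 3 of 5 for leukocytes, 4 of 6 for endothelial cells, 1 of 6 for fibroblasts and 3 of 3 for epithelial cells, and their part in the values of the family was not tested. The widest shift in rank for this mark was -15.7 percentile points, at Smad5. The split depended on the scale, with 5 members higher and 0 lower relative to all peaks of the library or to windows far from any TSS, 6 and 0 with no scaling, and 0 and 7 per uniquely mapped read. Of all bodies, 35.3% were higher and 7.22% lower relative to all peaks, and 35.5% and 6.75% relative to such windows. With no scaling these shares were 66.4% and 0.0231%, and per uniquely mapped read 0.638% and 88%. For H3K36me3, Smad6 was past the fold with more in LLC-R (0.30), against 17.7% of all bodies, and no member with less, against 5.66%. The same alternatives gave 0 higher and 2 lower, 0 and 2, 3 and 0, and 0 and 8. The shares of all bodies were 8.14% and 33.6%, 7.54% and 35.7%, 53.3% and 0.0691%, and 0.507% and 97.8%. For H3K4me3 no member was past the fold, against 7.6% and 7.08% of all bodies, nor for H3K9ac, against 0.807% and 1.61%.

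Summed over the 8 promoters, H3K4me3 gave 48 peaks in LLC-NR against 44 in LLC-R, a log2 ratio of -0.03 relative to all promoters (95% Clopper-Pearson interval -0.66 to 0.59, counting error only). H3K9ac gave 49 and 43 peaks, with a ratio of -0.04 (-0.66 to 0.58). H3K27me3 gave 42 and 46, with -0.13 (-0.76 to 0.51), and H3K36me3 gave 23 and 33, with -0.11 (-0.92 to 0.72). All 4 intervals include 0. A difference within these intervals was not detectable with so few peaks. Summed over the bodies, the log2 ratios were 0.03 (-0.09 to 0.15) for H3K4me3, 0.04 (-0.05 to 0.14) for H3K9ac, 0.11 for H3K27me3 (from just below 0 to 0.21), and -0.01 (-0.11 to 0.09) for H3K36me3. The median over the members was 0.25 for H3K27me3, beside 0.04 over all bodies, and between -0.05 and 0.11 for the other marks.

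The 3 members on chromosome 18 share a feature of that chromosome. Its share of all peaks was higher in LLC-R for all 4 marks, with log2 ratios of 0.204 for H3K4me3, 0.10 for H3K9ac, 0.118 for H3K27me3 and 0.159 for H3K36me3. The chromosomes of the other members had ratios between -0.067 and 0.031. For H3K4me3 the shares of all peaks that fell in the bodies of Smad2, Smad4 and Smad7 had log2 ratios of 0.21, 0.15 and 0.15, and those in their flanks 0.26, 0.19 and 0.29. For H3K36me3 the flanks were also above 0, with 0.36 for Smad2, 0.21 for Smad4 and 0.15 for Smad7, while the bodies were not, with -0.28, -0.27 and -0.02. For H3K27me3 the bodies had 0.37, 0.69 and 0.36 in the same order of genes, and the flanks -0.11, 0.03 and 0.14. The part of the chromosome in the values of these 3 genes was not tested.

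**Figure D5:**
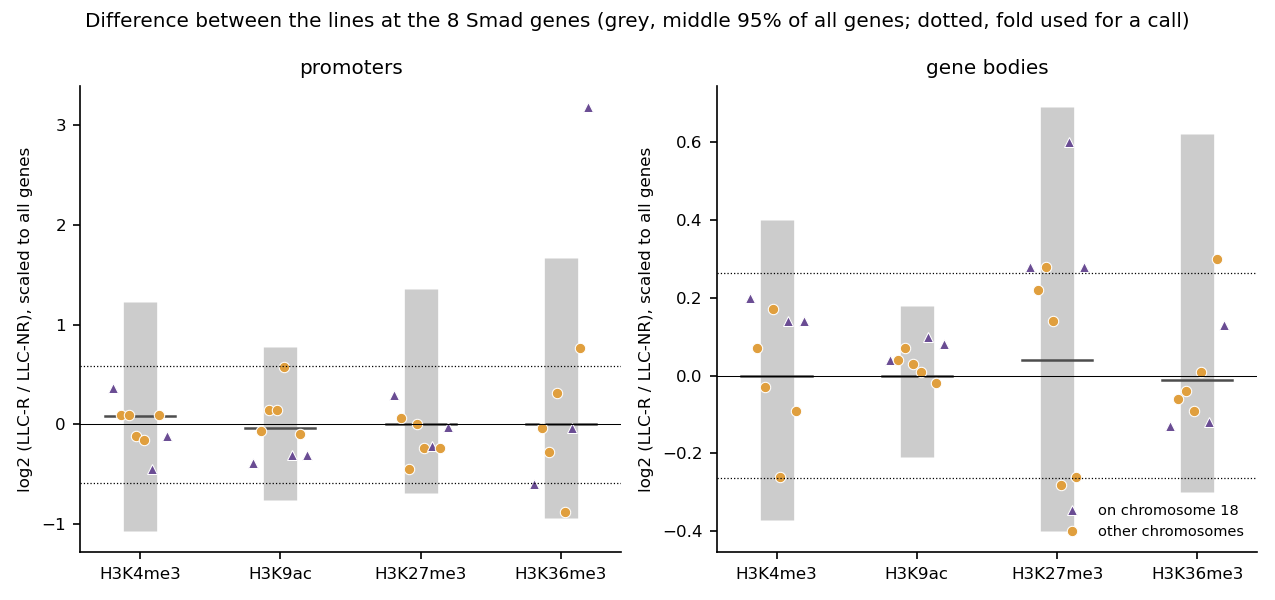
Log2 ratio of LLC-R to LLC-NR peaks relative to the mean of all genes (y axis) for the 8 members at promoters and bodies, 1 point per gene and mark, with triangles for chromosome 18, grey bars for the middle 95% of all genes, short lines at their median and dotted lines at the folds of 1.5 and 1.2. All members lie within the grey bars except Smad7 for H3K36me3 at the promoter, whose value rests on 0 peaks in LLC-NR and on the pseudocount.

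Among all bodies, those most like Smad3 over the 8 libraries, by Euclidean distance of log2 levels relative to the library mean, were Ptplad1 at 0.07, Rapgef2 at 0.08 and Nav1 at 0.10. Within the family, Smad1 and Smad3 were closest at 0.12, although they serve different branches, and Smad4 and Smad9 were farthest apart at 1.63. Smad6 lay nearest to Smad9 at 0.52, and Smad2 nearest to Smad5 at 0.30. The distances were taken over whole bodies, with the repeated sequence of Smad4 and Smad5 included. The part of that sequence in the distances was not tested.

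The wider pathway was described by 79 genes, all found, of which Skil is both a regulator and a target gene. Past the promoter fold with more in LLC-R were 6 genes for H3K4me3, 3 for H3K9ac, 4 for H3K27me3 and 23 for H3K36me3, and with less were 3, 4, 3 and 7. These are 7.59%, 3.8%, 5.06% and 29.1% of the 79 genes with more, where all promoters had 8.63%, 4.5%, 12.4% and 20.9%, and 3.8%, 5.06%, 3.8% and 8.86% with less, where all promoters had 7.66%, 6.8%, 4.82% and 12.5%. The 16 ligands had 2 and 1 for H3K4me3, 0 and 0 for H3K9ac, 0 and 1 for H3K27me3 and 4 and 2 for H3K36me3, higher and lower. The 14 receptors and co-receptors had 0 and 0, 0 and 1, 0 and 0, and 1 and 2 in the same order of marks. The 19 regulators and cofactors had 0 and 1, 1 and 0, 4 and 2, and 8 and 1. The 13 extracellular antagonists had 3 and 0, 2 and 1, 0 and 0, and 3 and 2, and the 18 target genes had 1 and 1, 0 and 2, 0 and 0, and 7 and 0. Among the genes of the lists past the fold for 2 or more marks, the 5 with the largest summed ratios were Sp1, Cdkn1a, Nedd4l, Hipk2 and Nog. The share of all promoters past the fold for 2 or more marks was not counted, so these genes are examples only. Sp1, a factor that acts with Smads at GC-rich promoters, had 7 H3K4me3 peaks in LLC-NR against 4 in LLC-R and 4 and 6 H3K9ac peaks. Its place in this order rests on 0 and 3 H3K36me3 peaks and on the pseudocount, and no fold is given for that mark. Nog, a secreted antagonist of BMPs, had 3 and 7 H3K4me3 peaks. Nedd4l, a ubiquitin ligase of Smads on chromosome 18, had 2 and 8 H3K27me3 peaks. Cdkn1a, a cell-cycle inhibitor induced by TGF-beta, had 4 and 6 H3K4me3 and 1 and 6 H3K36me3 peaks. Hipk2 had 7 and 5 H3K27me3 and 1 and 5 H3K36me3 peaks.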

How the data were processed

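Chromatin of LLC-NR and LLC-R isografts was profiled for 4 histone marks, with 1 library per line and mark. The authors aligned the reads with Bowtie 0.12.7 (mm9, up to 2 mismatches), discarded those without a unique place and ran GeneTrack on every library, whose settings are not given in the sources used here. The deposited values are peak positions (147 bp wide, read as 1-based), with no signal, height or strand, and no input library was used here.

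Gene models were from GENCODE vM1 and sequence from NCBIM37, the assembly of mm9. Midpoints were counted per promoter and body and divided by the mean of all protein-coding genes of the library. Promoters were called at 1.5-fold, with a pseudocount of 10% of the mean, and bodies of 10 kb or more at 1.2-fold. Without replicates no test was made. Percentiles are mid-ranks. Intervals cover counting error only. A 32-base stretch was unique when it occurred once on both strands of the genome.

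The members and the pathway and marker lists were chosen with earlier results of these data known. The text names all members, at most 6 pathway genes past the fold for 2 or more marks with the largest summed ratio first, and the 3 bodies most like Smad3. One pathway gene that this rule names is not reported here. The repeat and flank values and bodies from the most upstream TSS were chosen after seeing the data. Counting was checked on simulated data. The tools were samtools 1.23.1, Matplotlib 3.10.9, pandas 2.3.3, SciPy 1.17.1, NumPy 2.4.6 and Python 3.11.15.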

Additional observations from a re-analysis of the deposited data

How the results depend on the processing

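No paired analysis was possible because each line and mark has 1 library and no replicate. The differences between the lines changed with the scaling. Under 60 alternatives to the summed log2 ratios, 49 lay inside the counting interval of the value reported, and under 64 alternatives to the numbers of members past the fold, 47 stayed within 1.5 times in total, whatever their direction, while 35 kept both the number higher and the number lower. Per uniquely mapped read, the H3K27me3 bodies past the fold went from 4 higher and 1 lower to 0 and 7. Of all bodies, 0.638% were then higher and 88% lower. On the same scale, the ratios were 0.30 (H3K4me3), 0.71 (H3K9ac), -0.58 (H3K27me3) and -0.93 (H3K36me3) over bodies and 0.62 (H3K9ac) and -0.97 (H3K27me3) over promoters. Past the fold were then 5 bodies (H3K4me3) and 8 (H3K9ac) with more in LLC-R and 8 (H3K36me3) with less. The shares of all bodies in the same direction were 52.9%, 99.3% and 97.8%. Among promoters, 3 had more H3K9ac and 7 had less H3K27me3 in LLC-R, against 45.5% and 62.1% of all promoters. With no scaling, the ratios over bodies were -0.09 (H3K9ac), 0.52 (H3K27me3) and 0.29 (H3K36me3), with 3 bodies past the fold for H3K36me3. All 3 had more in LLC-R, as did 53.3% of all bodies. Relative to all peaks, H3K36me3 bodies gave -0.16, with 2 past the fold, and relative to windows far from any TSS -0.17, also with 2, where H3K4me3 bodies gave 1. These had less in LLC-R, as did 33.6% and 35.7% of all bodies for H3K36me3 and 7.15% for H3K4me3. With a fold of 1.1, 5 bodies passed for H3K4me3 and 8 for H3K27me3. For H3K4me3 these were 4 higher and 1 lower, against 21.3% and 20.8% of all bodies. For H3K27me3 they were 6 and 2, against 40.2% and 34.7%. With the lower fold tried for promoters, 2 passed for H3K4me3, 2 for H3K9ac and 1 for H3K27me3. For H3K4me3 these were 1 higher and 1 lower, against 21% and 19.1% of all promoters. For H3K9ac they were also 1 and 1, against 18.4% and 14.7%, and for H3K27me3 0 and 1, against 19.9% and 15%. Counting a peak with 1 bp inside gave 1 promoter for H3K4me3, and for H3K9ac both 1 kb on either side of the TSS and no pseudocount gave 1. The H3K4me3 promoter had more in LLC-R, against 8.38% of all promoters. The H3K9ac promoter had less with the wider promoter, against 3.92%, and more with no pseudocount, against 5.37%. Apart from the alternatives whose construction sets the value, such as a lower fold, the cause was not tested. Without the members on chromosome 18, the ratio for H3K27me3 bodies was 0.01. Bodies from the most upstream TSS, an alternative chosen after seeing the data, left every number of bodies past the fold as it was. Each promoter holds at most 9 peaks, so that 1 peak more or less can decide a call, and the effect of depth was not tested.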
